A study of Mus musculus with 6 samples.

Results

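The 7 genes described here mark cells of the neural crest lineage, and they were measured in whole hearts of mouse embryos at embryonic day 13.5. They were the 7 rows, of 45792 in the deposited count table, whose symbol is Sox10, Foxd3, Erbb3, Ednrb, Ret, Th or Dbh. The 6 hearts were 3 controls labelled wild type and 3 Tie2Cre INO80 flox/flox mutants. In the mutants, Cre driven by the Tie2 (Tek) promoter acts in endothelial and endocardial cells and their descendants, but not in neural crest cells. It removes Ino80, the ATPase of a chromatin remodeler. The labels give the strain as C57BL/6 for all 6 hearts, whereas the methods describe mixed backgrounds. The paper defines its controls as every genotype but the mutant one. Its methods pair Cre-carrying Ino80 flox/+ males with Ino80 fl/fl females and use litter mates as controls. The control hearts may therefore carry floxed alleles, which the labels do not say. Each library came from one embryonic heart, and the labels do not say which hearts shared a litter. The libraries held 28948836 to 89675692 counts, and the deepest one was a mutant heart. Ino80 itself, counted over the whole gene including the exons that are not deleted, was at 31.5 ± 1.26 CPM (SD, n = 3) in control and 34.0 ± 2.35 CPM (SD, n = 3) in mutant hearts, so this count does not check the labels. CPM, the usual counts-per-M unit, is a count relative to the library total after TMM scaling, which adjusts the totals for composition. The heart muscle markers Myh6, Myh7, Tnnt2 and Actc1 were high in all 6 hearts, and the lung and brain genes Nkx2-1, Neurod1, Neurog2 and Slc17a6 had 0 counts in every heart. Other genes of those lists were counted: the summed level of 6 lung and gut genes, mostly Krt8, was 3.3 to 8.61 CPM in control and 7.11 to 7.5 CPM in mutant hearts, and that of 6 brain genes, mostly Gad1, was 0.105 to 0.136 and 0.171 to 0.303 CPM. For 6 liver genes the sum was 0.867 to 2.04 and 1.41 to 1.95 CPM, but single genes were uneven. Afp gave 2, 24 and 12 counts in control and 3, 7 and 0 in mutant hearts. Alb gave 0, 12 and 12 against 0, 1 and 0, and Apob 0, 4 and 0 against 68, 14 and 34. Whether liver cells were carried over was not tested.

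Neural crest cells leave the dorsal neural tube and enter the heart through the outflow tract. There they contribute to the septum and the great arteries, and they give rise to the glia and neurons of the cardiac ganglia. Sox10 and Foxd3 are transcription factors of migrating crest cells and of glia. Erbb3 and Ednrb are receptors for neuregulin and endothelin that crest cells use, and Ret is the receptor for the GDNF family of neuronal growth factors. Th and Dbh are the enzymes that make catecholamines in sympathetic neurons and related cells. At this stage the innervation of the heart is only beginning.

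The promoters of Dbh and Th are shown because both genes act in noradrenergic cells, whose homeodomain factor Phox2a is described later. The sequences are from RefSeq (GRCm38.p6), which had entries for 4 of the 7 genes (Foxd3, Ednrb, Th and Dbh), and run from 250 bases before to 50 bases after the start of the gene, 5′ to 3′ on the strand of the gene. The start is that of the RefSeq entry, and both windows lie inside the outer limits of the genes in the GENCODE annotation, which are given with the values. Both strands were searched. Capitals mark the homeodomain core ATTA in either orientation, and the cAMP response element TGACGTCA, which reads the same on both strands.
Dbh, chr2:27165257-27165556, plus strand: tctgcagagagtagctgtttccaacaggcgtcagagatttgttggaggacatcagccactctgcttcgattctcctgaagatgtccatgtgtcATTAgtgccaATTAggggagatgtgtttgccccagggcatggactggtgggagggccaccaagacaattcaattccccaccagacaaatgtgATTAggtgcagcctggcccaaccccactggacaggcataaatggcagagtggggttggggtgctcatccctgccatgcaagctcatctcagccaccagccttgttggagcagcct
Th, chr7:142899946-142900245, minus strand: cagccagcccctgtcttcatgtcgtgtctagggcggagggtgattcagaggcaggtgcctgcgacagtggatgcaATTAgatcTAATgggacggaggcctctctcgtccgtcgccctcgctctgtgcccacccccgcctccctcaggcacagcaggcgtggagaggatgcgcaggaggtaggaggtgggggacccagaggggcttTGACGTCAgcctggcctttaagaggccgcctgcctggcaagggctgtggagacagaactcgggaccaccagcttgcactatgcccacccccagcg
The Dbh promoter held 3 matches to the homeodomain core and the Th promoter held 2. At least 1 match was present in 58% of 32817 promoters of the same length, and at least 3 in 20% of them, so such matches were common. The cAMP response element stood in the Th promoter, 45 bases before the start, and in the Foxd3 promoter. It was present in 1.79% of promoters. The SOX core ACAAAG in either orientation, present in 18.7% of promoters, was not in any of the 4 promoters. These are matches of letters only.

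The levels of the genes spanned more than 3 orders of magnitude. Per kb of merged exon, the mean over the 6 hearts was 39.7 CPM for Ednrb, 2.56 for Erbb3, 0.267 for Dbh, 0.0954 for Sox10, 0.0841 for Ret, 0.0718 for Th and 0.0214 for Foxd3. The ranges of Ednrb, Erbb3 and Dbh over the hearts were separate from each other and from the rest, whereas neighbours in the order from Sox10 to Foxd3 overlapped. Sox10, Foxd3, Th and Dbh, the members most particular to crest cells, glia and catecholamine-making neurons, had 70, 10, 44 and 184 counts in the 6 libraries together. Genes such as Ednrb and Erbb3 are also expressed outside the crest lineage, so that their higher level in whole hearts cannot be assigned to crest cells. In whole hearts, fewer cells of a type and less RNA per cell cannot be told apart.

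None of the genes was called different between control and mutant hearts. Counts high enough for a test by edgeR's quasi-likelihood method were available for 5 of the 7 genes, Sox10, Erbb3, Ednrb, Ret and Dbh, while Foxd3 and Th were below the filter on low counts. At an adjusted p under 0.05, 0 of these 5 were called, as were 0% of all 17125 tested genes. At an unadjusted p under 0.05 the count was also 0 of 5, where 9.48% of all tested genes were higher and 9.98% lower. With total counts in place of TMM these shares were 13.5% and 7.15%, and the count of members was again 0. DESeq2 gave a p to all 7 genes and an adjusted p to 4 of them, and also called 0, with 0 at an unadjusted p under 0.05, while it called 2.67% of the 16614 genes with an adjusted p higher and 3.43% lower. Of the 5 tested genes, 1 was higher and 4 were lower in mutant hearts, with a median log2 fold change (mutant over control) of -0.085, against -0.0017 over all tested genes.

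**Figure D1:**
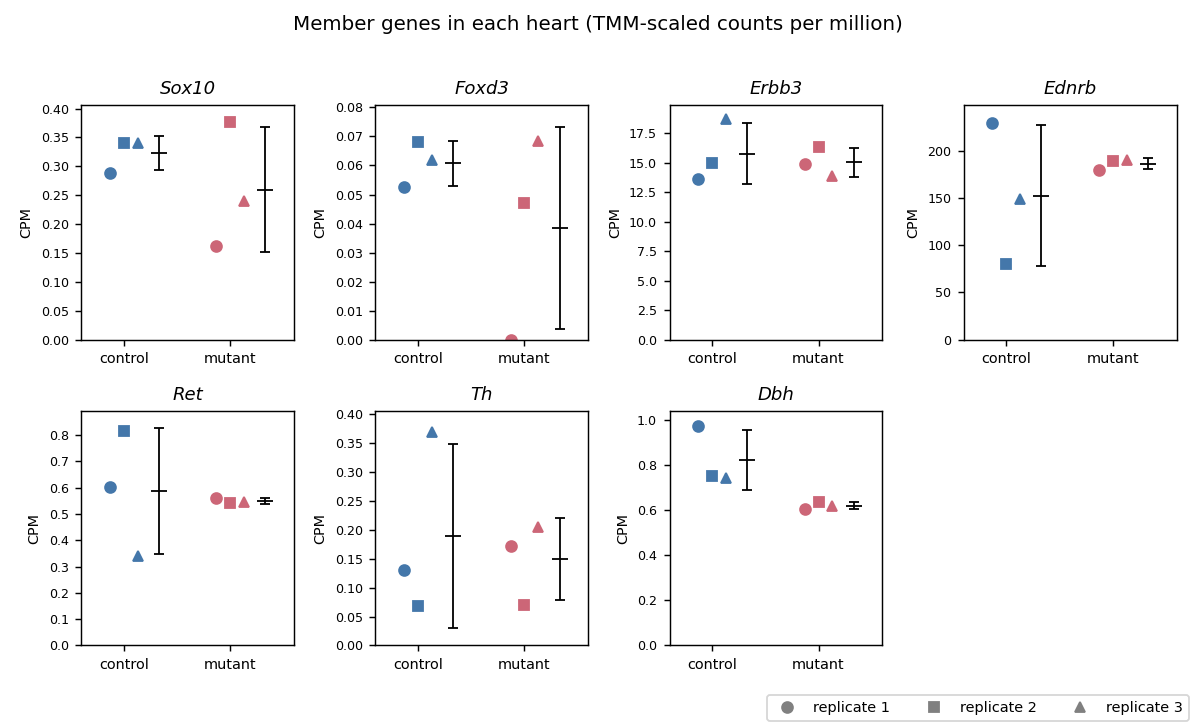
The 7 genes in each heart. The vertical axes give TMM-scaled CPM from 0, each symbol is 1 heart (circle, square and triangle for replicates 1 to 3), and the black mark with bars is the mean with its SD. Control replicate 2 stands low for Ednrb, the mutant hearts lie close together for Ednrb, Ret and Dbh, and only Dbh has no overlap between the groups. For Ret and Dbh the mutant hearts varied by 0.014 and 0.0199 times the variance that counting gives. At their low counts this closeness cannot show even expression.

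Sox10 (ENSMUSG00000033006.9, chromosome 15, 79154908 to 79165240 on GRCm38) gave 11, 10 and 11 counts in control hearts and 15, 16 and 7 counts in mutant hearts. On the CPM scale these were 0.289, 0.340 and 0.340 in control replicates 1 to 3 and 0.162, 0.376 and 0.239 in mutant replicates 1 to 3. The mutant hearts spread on both sides of the controls, with mutant replicate 2 the highest of all 6. Its log2 fold change was -0.36, with a standard error (SE) of 0.43, a 95% confidence interval from -1.35 to 0.62 and an edgeR adjusted p (Benjamini-Hochberg) of 0.656. As a ratio of mutant to control the interval ran from 0.393 to 1.54, and the mutant hearts varied by 2.89 times the variance that counting gives. Foxd3 (ENSMUSG00000067261.4, chromosome 4, 99656299 to 99658622) gave 2 counts in each control heart and 0, 2 and 2 counts in mutant hearts. The mutant heart with 0 counts was the deepest library, for which 3 counts, the limit that a count of 0 allows for counting error, correspond to 0.0324 CPM. No fold change is given, since every heart was below that floor of 3 counts.

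Erbb3 (ENSMUSG00000018166.8, chromosome 10, 128567523 to 128589652), which pairs with Erbb2 to respond to neuregulin and is also used by cushion mesenchyme, was at 13.6, 15.01 and 18.7 CPM in control replicates 1 to 3. It was at 14.9, 16.3 and 13.8 CPM in mutant replicates 1 to 3, all within the range of the control hearts. The log2 fold change of -0.07 (SE 0.13) had a 95% confidence interval from -0.38 to 0.24 (edgeR adjusted p = 0.801), the narrowest interval among the 5 tested genes. Without control replicate 3, the highest of all hearts, the log2 fold change was 0.07.

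Ednrb (ENSMUSG00000022122.12, chromosome 14, 103814625 to 103844402), the endothelin receptor type B, was the most abundant of the genes. Its control hearts varied by 1182 times the variance that counting gives, a ratio that grows with the count and does not rank the genes. It was at 229.5, 79.9 and 148.5 CPM in control replicates 1 to 3 and at 179.7, 189 and 190.3 CPM in mutant replicates 1 to 3. The highest control heart was 2.87 times the lowest (5.44 times for Th), whereas the highest mutant heart was 1.06 times the lowest. The mutant hearts lay inside the range of the controls. The group means were 153 ± 74.9 and 186 ± 5.76 CPM (SD, n = 3 each). Ednrb had a log2 fold change of 0.29 (SE 0.31, edgeR adjusted p = 0.623), with a 95% confidence interval from -0.42 to 0.99. It rested on single control hearts: without control replicate 2 it was -0.02, and without control replicate 1 it was 0.71 (edgeR adjusted p = 0.131).

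Control replicate 2 was the lowest of the 6 hearts for 23.6% of all tested genes and for 5 of the 13 tested partner genes. It was also the lowest for 6 of 8 endothelial markers, 4 of 6 tested melanoblast genes and 3 of 6 epicardial markers. For the 6 tested catecholamine genes the number was 0. Among the endothelial markers, Tie1 was at 95.2 CPM in that heart and at 137 CPM in both other controls. Cdh5 was at 225 CPM against 260.1 and 301 CPM. Pecam1 went the other way among the controls, at 149 CPM against 121 and 140 CPM. The part of any of these cells in the low value of Ednrb was not tested. Ece1, which encodes the enzyme that activates endothelins, was at 199, 113 and 160 CPM in control replicates 1 to 3 and at 196, 198 and 202 CPM in mutant hearts. Sema3a, a guidance cue for crest cells and sympathetic axons, was at 57.0, 23.6 and 34.7 CPM in control hearts and at 50.6, 50.4 and 45.2 CPM in mutant hearts. Their log2 fold changes were 0.33 (adjusted p = 0.325) and 0.34 (adjusted p = 0.496, both from edgeR). The endothelin receptor type A gene, Ednra, did not share this pattern and had 48.2 to 53.8 CPM in control and 46.9 to 50.8 CPM in mutant hearts.

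Ret (ENSMUSG00000030110.11, chromosome 6, 118151745 to 118197718) was at 0.604, 0.817 and 0.340 CPM in control replicates 1 to 3 and at 0.562, 0.541 and 0.547 CPM in mutant replicates 1 to 3. The control hearts differed by up to 2.41 times and enclosed the mutant hearts. The mutant hearts varied by 0.014 times the variance that counting gives, closer than counting alone gives on average. For Ret the log2 fold change was -0.08 (SE 0.36, edgeR adjusted p = 0.912), and its sign changed without control replicate 2, to 0.21.

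Th (ENSMUSG00000000214.8, chromosome 7, 142892752 to 142931128), tyrosine hydroxylase, the rate-limiting enzyme of catecholamine synthesis, gave 5, 2 and 12 counts in control hearts and 16, 3 and 6 counts in mutant hearts. This was 0.131, 0.0681 and 0.370 CPM in control replicates 1 to 3 and 0.173, 0.0705 and 0.205 CPM in mutant hearts. Every mutant heart lay within the range of the controls, which alone differed by 5.44 times. In a fit that kept every gene with at least 1 count, the log2 fold change of Th was -0.34 (SE 0.67, edgeR adjusted p = 0.83).

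Dbh (ENSMUSG00000000889.8, chromosome 2, 27165233 to 27183200), dopamine beta-hydroxylase, which turns dopamine into noradrenaline, was the one gene of the group without overlap. It gave 37, 22 and 24 counts in control hearts and 56, 27 and 18 counts in mutant hearts, or 0.972, 0.749 and 0.741 CPM against 0.606, 0.635 and 0.615 CPM. Every mutant heart lay below every control heart. The mutant hearts varied by 0.0199 times the variance that counting gives, closer than counting alone gives on average, and the lack of overlap rests partly on this. Among all tested genes, 12.8% were lower and 27.1% were lower or higher without overlap, so 1 of 5 is not a result about these genes. Dbh had a log2 fold change of -0.41 (SE 0.27, edgeR adjusted p = 0.408), with a 95% confidence interval from -1.02 to 0.20, and leaving out any one heart gave -0.48 to -0.27.

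Over the 6 hearts, the genes whose log2(CPM + 1) was most like that of each member were described by Pearson's r over 14634 or 14635 tested genes with a mean of at least 1 CPM. They were Gm11575, 1110019D14Rik and Nfkbia for Sox10 (r from 0.976 to 0.983), Tmem63b, Gm20796 and Thtpa for Erbb3 (0.983 to 0.991), and Tk2 and Mnda for Ednrb (0.995 and 0.996). For Ret they were Tcea3, Jade3 and Fgf9 (0.984 to 0.995), and for Dbh Cr1l, Oasl2 and Xlr4a (0.986 to 0.993). Between 11 genes for Erbb3 and 77 for Ednrb reached an r of 0.95. How many would do so by chance over 6 hearts was not tested. Sox10, Ret and Dbh were themselves under 1 CPM in every heart.

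The 8 lists of other genes of these lineages and pathways held 86 genes, of which 61 were tested. With edgeR, 0 had an adjusted p under 0.05. At an unadjusted p under 0.05, 3 were higher and 6 lower, to be read against the 9.48% and 9.98% of all tested genes. The median log2 fold change of the 61 genes was -0.016. DESeq2 called 2 higher, Pnmt and Erbb2, and 2 lower, Fabp7 and Ntrk2, where it called 2.67% and 3.43% of all genes with an adjusted p. Some of the 61 genes, such as Prph and Snap25, had no adjusted p from DESeq2. The edgeR fit that kept every gene with at least 1 count tested all of the 86 genes but Chat. It called 2 higher and 0 lower, where it called 0.926% of all genes higher and 1.21% lower.

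**Figure D2:**
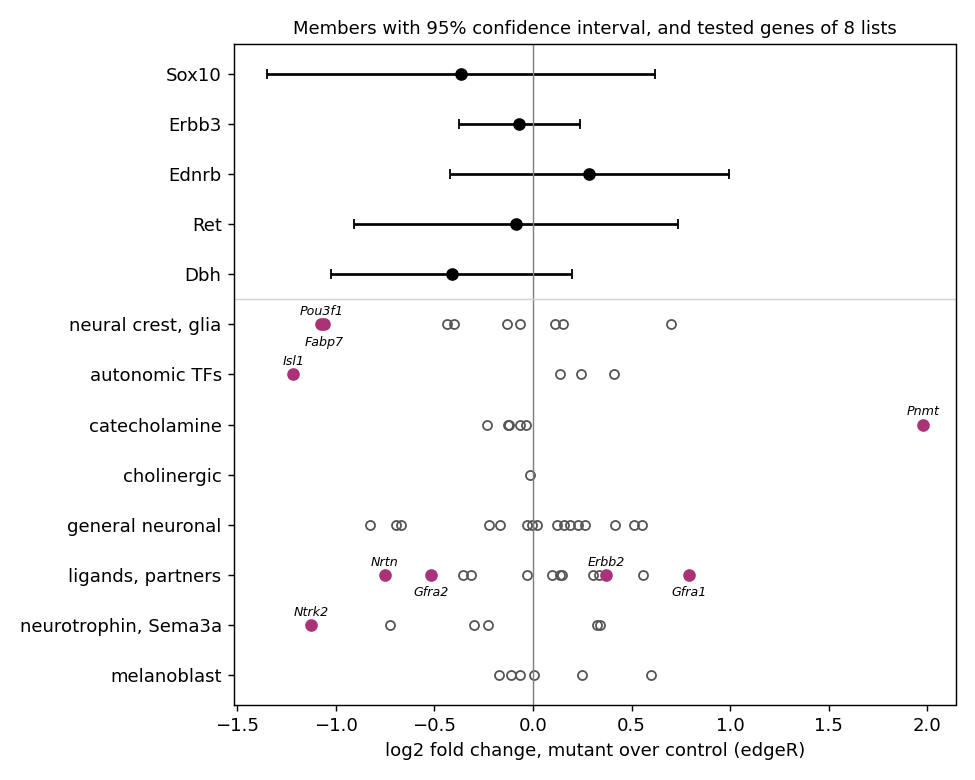
Log2 fold changes of mutant over control hearts from edgeR. The upper 5 rows are Sox10, Erbb3, Ednrb, Ret and Dbh with 95% confidence intervals, all of which include 0, and each lower row holds the tested genes of 1 list, with filled, named points at an unadjusted p under 0.05.

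Among 16 further neural crest and glial genes, 9 were tested and 7 were not. At an unadjusted p under 0.05 (edgeR), 0 were higher and 2 lower, where 9.48% and 9.98% of all tested genes were. The median log2 fold change was -0.13. Mbp and Fabp7, among the most abundant, are known from myelin and from glial precursors, and Mbp is also transcribed outside glia. Ngfr, the p75 receptor of crest cells, was at 2.74 ± 0.0792 and 2.60 ± 0.389 CPM (SD, n = 3 each) in control and mutant hearts, and the groups overlapped. Fabp7 was at 2.55, 6.60 and 3.30 CPM in control hearts and at 1.90, 1.81 and 2.26 CPM in mutant hearts, without overlap. Its log2 fold change was -1.06 (SE 0.35, edgeR adjusted p = 0.17, 0.0355 from DESeq2), and it was -0.56 without control replicate 2. Pou3f1 had the largest log2 fold change of the list, -1.07 (SE 0.46, edgeR adjusted p = 0.252), with overlapping groups, and was at -0.56 without control replicate 3. Cdh19, a cadherin of Schwann cell precursors, was at 0.473, 0.204 and 0.278 CPM in control hearts and 0.508, 0.564 and 0.513 CPM in mutant hearts (log2 fold change 0.70, edgeR adjusted p = 0.333).

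Of 8 transcription factors of autonomic neurons, 4 were tested. Hand2, Gata2 and Gata3, which other cells of the heart express as well, had log2 fold changes of 0.24, 0.13 and 0.41 (adjusted p from 0.261 to 0.556, edgeR). Isl1, a factor of sympathetic neurons and also of second heart field and sinus node cells, was at 0.998, 0.511 and 0.617 CPM in control hearts and at 0.357, 0.353 and 0.171 CPM in mutant hearts. Every mutant heart was below every control heart, with a log2 fold change of -1.22 (SE 0.40, edgeR adjusted p = 0.171). Phox2a, which is needed for the noradrenergic fate, was below the filter, with 14, 5 and 7 counts in control hearts and 4, 4 and 2 counts in mutant hearts. On the CPM scale it did not overlap, at 0.368, 0.170 and 0.216 against 0.0433, 0.0940 and 0.0684. In the fit that kept every gene with at least 1 count, its log2 fold change was -1.94 (SE 0.66, edgeR adjusted p = 0.159), and 95 bases of its exons overlap Inppl1 on the other strand.

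**Figure D3:**
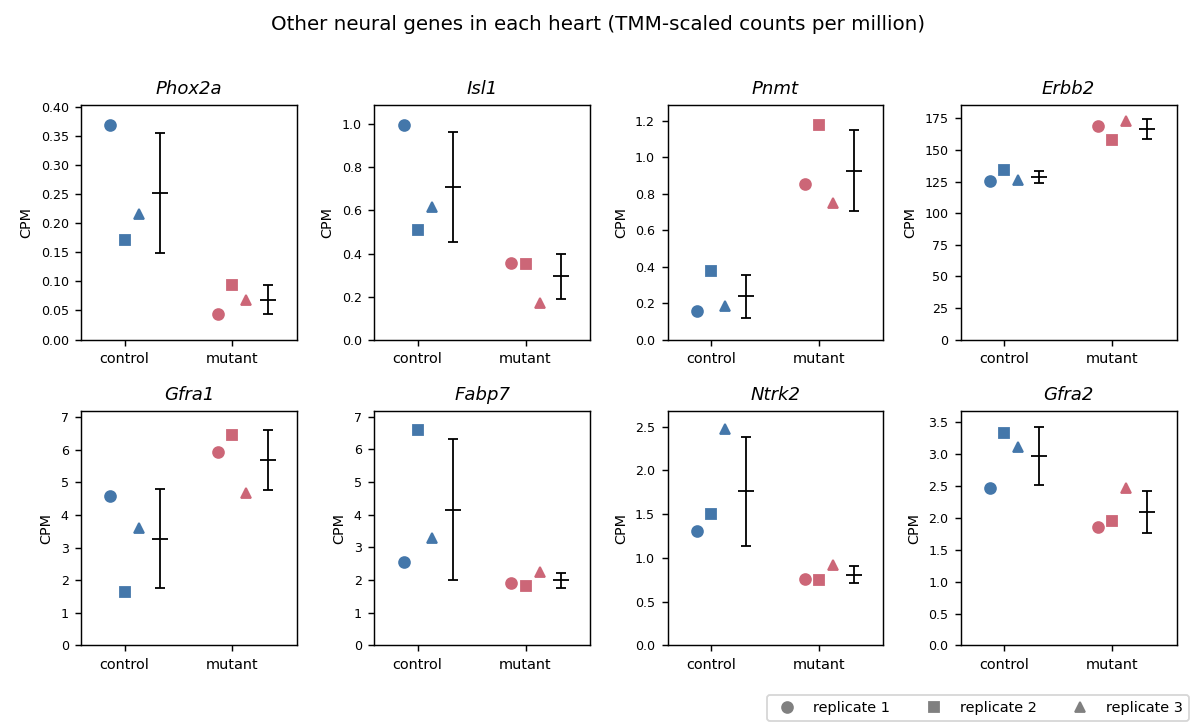
The plot shows 8 other genes of the lists in each heart, chosen after their values were seen, with axes, symbols and bars as for the plot of the 7 genes. Phox2a, Isl1, Fabp7, Ntrk2 and Gfra2 are lower and Pnmt, Erbb2 and Gfra1 higher in every mutant heart than in every control heart. Of the 61 tested genes of the 8 lists, 6 were higher and 5 lower without overlap. Among all tested genes these shares were 14.3% and 12.8%.

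The catecholamine list held 7 other genes that act in the synthesis, storage, uptake or breakdown of catecholamines, of which 6 were tested. Pnmt, which turns noradrenaline into adrenaline (chromosome 11, 98386450 to 98388181), gave 6, 11 and 6 counts in control hearts and 79, 50 and 22 counts in mutant hearts. It was at 0.158, 0.374 and 0.185 CPM in control hearts and at 0.854, 1.18 and 0.752 CPM in mutant hearts, so the lowest mutant heart had more than the highest control heart. Pnmt had a log2 fold change of 1.98 (SE 0.40), with a 95% confidence interval from 1.054 to 2.90. The adjusted p was 0.0833 from edgeR, 0.0239 from edgeR with every gene with at least 1 count and 0.0107 from DESeq2. Leaving out any one heart gave log2 fold changes from 1.74 to 2.43 and edgeR adjusted p from 0.075 to 0.249. Dbh, which makes the substrate of Pnmt, had its fitted value on the other side of 0, and the difference between both was not tested.

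Sinus node and atrial markers lay higher beside Pnmt. Of the 6 on that list, 5 were higher without overlap, where 14.3% of all tested genes were. Hcn4, the pacemaker channel, was at 14.3 ± 1.21 and 27.5 ± 2.72 CPM (SD, n = 3 each; log2 fold change 0.94, edgeR adjusted p = 0.0645, 7.12e-10 from DESeq2), and Shox2 and Tbx3 had log2 fold changes of 1.57 and 0.45 (edgeR adjusted p = 0.0935 and 0.108). The summed level of the 6 markers ran from 1260 to 1320 CPM in control and from 1460 to 1720 CPM in mutant hearts, of which Myl4 alone made up 1230.3 and 1513 CPM on average. Sln, the member that overlapped, had a log2 fold change of -0.17 (edgeR adjusted p = 0.889). Isl1, also a factor of sinus node cells but not on that list, went the other way. It was lower without overlap, with a log2 fold change of -1.22 (edgeR adjusted p = 0.171). The part of sinus node and atrial cells in the difference of Pnmt was not tested.

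Among the other catecholamine genes, the log2 fold changes of Gch1, Maoa, Slc18a2 and Ddc were -0.13, -0.12, -0.07 and -0.04. Ddc, which makes dopamine and has a transcript particular to the heart, was at 87.2, 234 and 129.8 CPM in control hearts and at 140.3, 121 and 178 CPM in mutant hearts, and here control replicate 2 was the highest heart. Slc18a2, the vesicular monoamine transporter, was at 11.3 ± 1.47 and 10.8 ± 1.65 CPM (SD, n = 3 each). Slc6a2, the noradrenaline transporter of sympathetic neurons, had 1 to 5 counts in any heart.

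Of 5 cholinergic genes, 1 was tested. Chat had 0 counts in all 6 hearts, Slc18a3 and Chrnb4 were below the filter, and Slc5a7, the choline transporter, was at 1.01 ± 0.67 and 1.04 ± 0.498 CPM (SD, n = 3 each). Of 20 general neuronal genes, 16 were tested, and 9 had a higher and 7 a lower fitted value in mutant hearts (median log2 fold change 0.07). At an unadjusted p under 0.05 (edgeR) the count was 0, where 9.48% of all tested genes were higher and 9.98% lower. The most abundant, Uchl1, Gap43 and Rtn1, are not restricted to neurons, and Gap43 was at 26.2, 12.4 and 27.0 CPM in control hearts and at 22.7, 22.4 and 19.0 CPM in mutant hearts. Npy, a peptide of sympathetic neurons, had the largest log2 fold change, -0.83 (SE 0.53, edgeR adjusted p = 0.409).

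Of 15 ligands, co-receptors and partner receptors of the 7 genes, 13 were tested. Without overlap, 4 were higher and 1 was lower (14.3% and 12.8% of all tested genes), and at an unadjusted p under 0.05, 2 were higher and 2 lower (9.48% and 9.98%). Erbb2, the partner of Erbb3 (chromosome 11, 98412470 to 98437716), was at 126, 134 and 126 CPM in control hearts and at 169, 158 and 173 CPM in mutant hearts. Its log2 fold change was 0.37 (SE 0.07, edgeR adjusted p = 0.0833, 0.0303 with every gene with at least 1 count and 0.00123 from DESeq2), and leaving out any one heart gave 0.35 to 0.41. The 95% confidence intervals of the log2 fold changes of Erbb2, 0.21 to 0.53, and of Erbb3, -0.38 to 0.24, overlapped, and the difference between them was not tested. Erbb4 and the ligand Nrg1, which the endocardium makes, had log2 fold changes of 0.10 and 0.15 (adjusted p = 0.688 and 0.802 from edgeR).

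The ligands of Ednrb differed in level. Edn1 was at 7.02 ± 0.493 and 7.73 ± 0.112 CPM (SD, n = 3 each), and Edn3, the ligand that crest cells depend on, was below the filter at 1 to 16 counts a heart. Among the partners of Ret, the co-receptor Gfra1 was at 4.60, 1.63 and 3.61 CPM in control hearts and at 5.95, 6.46 and 4.68 CPM in mutant hearts, a log2 fold change of 0.79 (SE 0.33, edgeR adjusted p = 0.243) that was 0.48 without control replicate 2. Gfra2, the co-receptor for neurturin in parasympathetic neurons, was at 2.47 to 3.34 CPM in control and 1.86 to 2.46 CPM in mutant hearts and had a log2 fold change of -0.52 (adjusted p = 0.234), and its ligand Nrtn one of -0.75 (SE 0.29, adjusted p = 0.21, both from edgeR). Nrtn was at 11.3, 17.6 and 18.6 CPM in control hearts and at 6.58, 8.18 and 13.7 CPM in mutant hearts, with an overlap between control replicate 1 and mutant replicate 3.

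Of 7 neurotrophin genes, receptors and Sema3a, 6 were tested. Ntrk2, the receptor for BDNF, which cells other than neurons also express, was at 1.31, 1.498 and 2.47 CPM in control hearts and at 0.757, 0.752 and 0.923 CPM in mutant hearts. The groups did not overlap, with a log2 fold change of -1.13 (SE 0.30, edgeR adjusted p = 0.126, 0.0394 from DESeq2). Ntf3 had a log2 fold change of 0.33 (edgeR adjusted p = 0.377). Melanoblasts are crest derivatives that also settle in the heart. Of 8 melanoblast genes, 6 were tested and 0 had an unadjusted p under 0.05 (edgeR), where 9.48% of all tested genes were higher and 9.98% lower. Dct, a pigment enzyme that marks melanoblasts, was at 1.87, 0.443 and 1.98 CPM in control hearts and at 0.822, 1.83 and 1.54 CPM in mutant hearts. Mitf and Kit, expressed by other heart cells too, had log2 fold changes of -0.17 and -0.11, and every mutant heart was below every control heart for Mitf (63.1 to 67.5 against 68.0 to 80.6 CPM, edgeR adjusted p = 0.279). Mlana had the largest log2 fold change of the list, 0.60 (edgeR adjusted p = 0.55).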

How the data were processed

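RNA of 6 whole hearts was sequenced by the authors. The authors deposited raw counts per gene, made from 76 bp paired-end reads mapped to GRCm38 with STAR 2.4.2a and GENCODE vM6 and counted with summarizeOverlaps, without normalization. Whether strand was used is not given in the sources used here. From a second deposited table, with the authors' DESeq2 fold changes and p-values, only the gene symbols were used, and 8 list symbols were joined by the annotation.

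The test was edgeR 4.0.16 in R 4.3.3 (filterByExpr with a minimum count of 10 and a minimum total of 15, TMM, quasi-likelihood test of condition, two-sided, Benjamini-Hochberg over 17125 genes, threshold 0.05). The standard error was the size of the log2 fold change divided by the square root of F. Coordinates and exon lengths are from GENCODE vM21 on GRCm38. Confidence intervals and floors of 3 counts follow from the fit and from counting error. DESeq2 1.42.0 was an alternative. The steps were tested on simulated data.

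The 7 genes and the lists were chosen with earlier results of these data known. Other genes named are those of the lists with an unadjusted p under 0.05, the most abundant of each list, the 1 with the largest change and those most like each member, besides a few named for their role after their values were seen (Phox2a, Cdh19, Gch1, Ngfr, Ednra, Edn1, Edn3, Nrg1, Slc18a2, Slc6a2 and the genes around Pnmt). Some genes that the rule names are not reported here. Of the other marker lists, the unadjusted p was under 0.05 for Myh6, Myl7, Upk3b, Hcn4, Shox2, Tbx3, Myl4, Nr2f2 and Apob, which were higher, and for Upk1b, which was lower, in mutant hearts. Depth ranged from 28948836 to 89675692 counts. Between hearts, no pair of libraries came near sampling noise (chi-square per degree of freedom of at least 14.37). The hearts are separate embryos. Each p-value sets the difference between the groups against the spread between hearts, which the fit estimates with information from all tested genes. The alternatives were other scalings, filters, a replicate block, thinning and leaving out each heart.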

Additional observations from a re-analysis of the deposited data

How the results depend on the processing

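The median log2 fold change of all tested genes stayed within 0.06 of 0 under every scaling. With total counts only, the unadjusted p was under 0.05 for 2309 genes with a higher and 1225 with a lower value (1624 and 1709 with TMM), and of the list genes 4 and 4 (3 and 6 with TMM). With DESeq2, the adjusted p was under 0.05 for 443 genes that were higher and 570 that were lower, with every gene with at least 1 count 262 and 341, and with the replicate number as a block 1 and 13, where the unblocked edgeR test had 0 and 0. Of the list genes, 2 were higher with DESeq2 and 2 with every gene with at least 1 count, and 2 were lower with DESeq2. At an unadjusted p under 0.05, 5 were higher under both of these settings. The log2 fold change of Ret was 0.11 after thinning to the smallest total. For deviations from the group means, same-numbered hearts had an r of 0.0245, -0.0836 and -0.073, and other pairs ran from -0.0759 to 0.136. With 3 hearts in each group, these values cannot decide whether the numbers pair samples. At an adjusted p under 0.05, the block changed no call among the 7 genes or the lists, with Ednrb at 0.41 and Dbh at -0.41 (log2). The cause of these changes was not tested.

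Leaving out 1 heart moved the log2 fold change of Erbb3 between -0.16 and 0.0718 (without control replicate 3), of Ednrb between -0.0197 (without control replicate 2) and 0.71 and of Ret between -0.36 and 0.21. It moved the calls over all genes between 0 and 320 higher and between 0 and 431 lower, the highest of both without control replicate 1. It moved those of the list genes between 0 and 1 lower (1 without control replicate 1), and at an unadjusted p under 0.05 between 2 and 7 higher. Of the 7 genes, between 0 and 1 were higher at an unadjusted p under 0.05 (Ednrb without control replicate 1). Sox10 was at -0.75 without mutant replicate 2 and -0.03 without mutant replicate 1. Foxd3 and Th were too low for the test. The control hearts varied by 3.05 times the counting variance for Ret, 4.26 times for Th and 1182 times for Ednrb. Since this ratio grows with the count, these values do not compare the genes.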

Other observations

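Pnmt and Erbb2 lie 26.0 kb apart on chromosome 11, and the tested genes within 250 kb of Pnmt were read after the values of both had been seen. Of 15 genes, 9 had a higher and 6 a lower fitted value in mutant hearts, with a median log2 fold change of 0.07, and at an unadjusted p under 0.05 4 were higher and 2 lower (edgeR), where 9.48% and 9.98% of all tested genes were, and 2 of the 4 are Pnmt and Erbb2 themselves. Besides Pnmt and Erbb2, the higher ones were Stard3, a cholesterol-binding protein of endosomes, at 0.36 (adjusted p = 0.0833 from edgeR), and Grb7, an adaptor of receptor tyrosine kinases, at 1.31 (adjusted p = 0.122). Among the genes between these, Gm12352, between Erbb2 and Grb7, had a log2 fold change of 0.92 without overlap (edgeR adjusted p = 0.259). Tcap, a sarcomere gene whose start is at -2.639 kb from that of Pnmt, had a log2 fold change of 0.06, and Pgap3, between Pnmt and Erbb2, one of 0.12 (adjusted p = 0.893 and 0.475 from edgeR). In the annotation used here, no other gene overlaps Pnmt.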
